A study of Mus musculus with 2 samples.

Results

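The cytosolic ribosomal protein genes encode the proteins that, together with the ribosomal RNAs, form the small and large subunits of the ribosome that translates messenger RNA in the cytoplasm. They were described here on 2 Affymetrix mouse 3′ expression arrays of splenic regulatory T cells (Tregs), a CD4+ lineage defined by the transcription factor Foxp3 that holds immune responses in check. Members were the probe sets that the platform annotation assigns to exactly 1 gene whose symbol is Rpsa, Rplp0, Rplp1 or Rplp2, or is Rpl or Rps followed by digits with at most 1 letter and 1 digit after them. Rps6k kinases and symbols containing -ps were left out. The rule found 105 probe sets of 49 genes, out of 45037 probe sets used and 18193 genes with a probe set of their own. Of the 49 genes, 23 belong to the small subunit and 26 to the large subunit. A further 28 family symbols had probe sets only together with pseudogenes or other genes, Rplp1, Rpl5 and Rpl10 among them, and stand outside the rule.

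The first array, called DNR here, came from animals with a dominant negative form of TGF-beta receptor II and the other from wild-type (WT) animals, both on the C57BL/6 background and 10 weeks old. Per the labels, CD4+Foxp3+ cells were sorted by flow cytometry from the spleens of naive animals, and total RNA was labelled with biotin. The comparison asks how gene expression differs between Tregs of the 2 genotypes. The promoter that drives the DNR transgene, the number of mice behind each RNA and how Foxp3 was detected for the sort are not given in the labels. The sorting text is the same on both records and names DNR mice, so the genotype was taken from the genotype field of each record. Signals of different probe sets are not levels on 1 scale, and many ribosomal protein genes have near-identical pseudogenes whose RNA could bind the same probes, so a ratio of such a probe set is uncertain. With 1 array per genotype there is no replicate error and no test of a difference, and every ratio below compares these RNA samples only. In bulk RNA, fewer cells of a type and less RNA per cell cannot be told apart.

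Ribosomal protein genes are transcribed strongly in dividing cells, and their messenger RNAs begin with a run of pyrimidines, the 5′ terminal oligopyrimidine (TOP) tract. This tract places their translation under the control of the mTORC1 kinase through the RNA-binding protein Larp1. Activation of a T cell by antigen is known to raise ribosome production ahead of cell division. The subunits are built at a fixed stoichiometry, and proteins made in excess are degraded. Their messenger RNAs rank among the most abundant of a growing cell.

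The start of the TOP transcripts is shown for the members whose annotated start site falls on such a tract, because the tract is the best known regulatory sequence of the family. RefSeq promoters of GRCm38.p6 were found for 43 of the 49 genes. All 8 members with a C at the annotated start followed by at least 4 bases that are each C or T are given, as 10 bases before the start and 20 from it on, with the run from the start in capitals.
Rps27 (chr3:90213629-90213658, minus strand): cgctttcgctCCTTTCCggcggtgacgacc
Rps6 (chr4:86857348-86857377, minus strand): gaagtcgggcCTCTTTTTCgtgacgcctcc
Rps18 (chr17:33955646-33955675, minus strand): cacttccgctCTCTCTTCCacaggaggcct
Rps10 (chr17:27635225-27635254, minus strand): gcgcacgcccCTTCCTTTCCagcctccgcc
Rpl38 (chr11:114668570-114668599, plus strand): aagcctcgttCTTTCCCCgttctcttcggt
Rplp2 (chr7:141447641-141447670, plus strand): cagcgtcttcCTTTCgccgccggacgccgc
Rpl35 (chr2:39005112-39005141, minus strand): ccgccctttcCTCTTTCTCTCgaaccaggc
Rpl14 (chr9:120571507-120571536, plus strand): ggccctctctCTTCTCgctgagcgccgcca
Most members have no such run at the annotated start. Of these, the ones with the highest ratios on their brightest probe sets in each subunit, Rps27l and Rpl39, are shown for contrast. Within 50 bases of an annotated start their longest runs were of 9 and 14 bases. A second annotated start of Rps27l also lacks the run and is not shown.
Rps27l (chr9:66946076-66946105, plus strand): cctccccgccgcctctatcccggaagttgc
Rpl39 (chrX:37085203-37085232, minus strand): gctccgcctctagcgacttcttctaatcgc
The runs of the 8 members were between 5 bases long in Rplp2 and 11 in Rpl35.

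A C followed by at least 4 pyrimidines exactly at the annotated start was found in 8 of 43 members (18.6%) and in 3.01% of 27025 genes with a promoter in the table. Annotated starts can lie some bases from the real one. A run of at least 8 pyrimidines within 50 bases of the start was found in 36 of 43 members (83.7%), against 39.3% of all genes. Within the 300 bases of the promoter, on either strand, the Ets family motif CCGGAAG was present in 21 members (48.8%) and in 9.93% of all genes. The YY1 motif AAGATGG was in 8 members (18.6%, against 7.28%) and the Sp1 motif GGGCGG in 25 (58.1%, against 38.2%). Matches of different motifs can overlap, since CCGGAAG ends with the AAG that begins AAGATGG and AAGATGG ends with the GG that begins GGGCGG. A gene with several annotated starts was counted once if any start held the motif. Among measured members, the 8 with the TOP run at the start had a median log2 ratio of 0.014 and the 34 without it 0.056. The 21 with CCGGAAG had a median of 0.19, with 14 higher on the DNR array, and the 21 without it 0.021, with 12 higher. These splits were made with the reported values only, and the family's own median changed sign under some other ways of processing.

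The arrays also differed outside the family. The 18 hybridisation spike-ins, control RNAs added to the hybridisation mix, had higher signals on the DNR array in every case, with a median of 1.95-fold, over mean signals from 11223 to 268962. Of the 24 poly-A spike-ins, control RNAs that serve for the labelling reaction, 20 were higher, with a median of 1.29-fold and log2 ratios from -0.38 to 0.74. The 3′ over 5′ signal ratio of Actb was 6.31 on the DNR and 4.98 on the WT array, and that of Gapdh 2.28 and 2.07. The 3 probe sets for 18S ribosomal RNA had DNR over WT ratios between 1.03 and 1.14. All 8 Treg and T cell markers were above background on both arrays, with Foxp3 at 4550 (DNR) and 3754 (WT). Of the 8 markers 5 were higher and 3 lower on the DNR array, namely Cd4 (414.5 and 594.6), Il2ra and Cd3e. The 4 measured proliferation markers were all at least 2-fold higher on the DNR array (summed signal 11446 against 4363). Macrophage and monocyte markers summed to 3446 against 4861, with 7 of 7 measured lower and Cd14 below the floor on both arrays. B cell markers summed to 20896 against 16375, nearly all of it Ighm (19368 and 15236), with 3 of 5 measured higher, Cd22 over 2-fold, and Ms4a1 and Blk lower. CD8 T and NK cell markers summed to 821 against 635, with Cd8b1 lower and the other 3 higher. Neutrophil markers summed to 861 against 496, with S100a8 and Ngp higher, Elane lower and 5 of 6 at or below the floor on the WT array. Of 3 erythroid markers, Hba-a1 and Alas2 were below the floor on both arrays. The part of the spike-in, RNA quality and marker differences in the ribosomal protein ratios was not tested.

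Ribosomal protein genes had nearly the same signal in DNR and WT Tregs. Each gene was represented by the brightest of its probe sets, as the mean of both arrays. Values under a floor of 110.9, the higher of the arrays' medians, were raised to it, and the log2 ratio is that of DNR over WT. Measured genes are those that exceeded the floor on either array or both, and 48 of the 49 did. The median log2 ratio of the 48 was 0.079, against 0.014 over all 11927 measured genes, and 31 were higher and 17 lower. This share of 64.6% higher stands beside 51.4% of all measured genes. The 31 higher members include Rpl3l, which exceeded the floor on the DNR array alone. The direction of the median was not stable: it was -0.038 with quantile normalization, -0.018 with a loess correction for brightness and -0.052 without suffixed probe sets, which left 25 genes. These have names ending in _a_at, _s_at or _x_at, and their probes can match several transcripts, of 1 gene (_a) or of several (_s and _x). No member was at least 2-fold higher, against 4.0% of measured genes, and 1 member, Rps27, was at least 2-fold lower, against 2.93%. Rps27 was also the only member at least 1.5-fold lower (9.85% of measured genes were), and Rpl39 the only one at least 1.5-fold higher (12.8%), which makes 2 of 48 in either direction against 22.6%. No member was at least 3-fold lower, against 0.528%. Beyond 1.2-fold, a threshold chosen after the data were seen, lay 12 of the 48 (25%), against 54.9% of measured genes. Of these 12, 11 were higher (29.0% of measured genes were) and 1 was lower (25.8%). The members nearest to this threshold were Rpl13a and Rps20 just past it, at log2 ratios of 0.26 and 0.27, and Rpl27a and Rpl8 just short of it, at 0.24 and -0.25, with Rpl27a named after its values were seen.

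**Figure D1:**
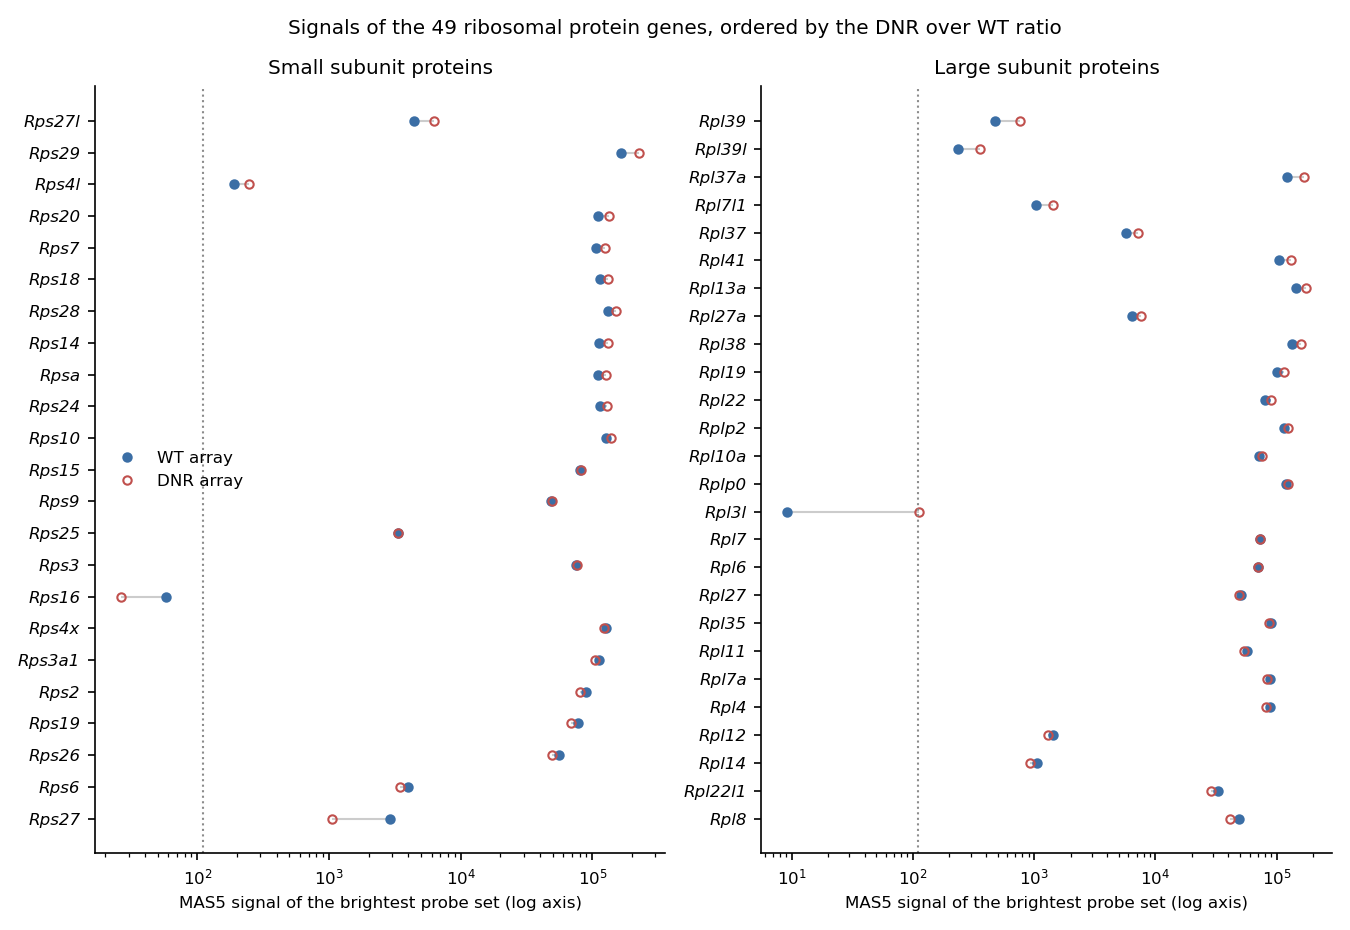
Signal of the brightest probe set of each of the 49 ribosomal protein genes on the WT array (filled blue) and the DNR array (open red), on a log axis, with small and large subunit genes in separate panels ordered by the DNR over WT ratio; the dotted line is the floor of 110.9. The 2 points of most genes nearly coincide, Rps27 is lower on the DNR array, Rps16 is below the floor on both arrays, and the share of genes with the higher point on the DNR array (31 of 48, or 64.6%) was 37.5% with quantile normalization.

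The subunits had close medians as reported but not under every alternative. The 22 measured small subunit genes had a median log2 ratio of 0.084, with 15 higher and 7 lower. The 26 measured large subunit genes had a median of 0.079, with 16 higher and 10 lower. Each median was below 0 with quantile normalization, at -0.027 for the small and -0.048 for the large subunit. The small one was also below 0 without suffixed probe sets (-0.21 over 12 genes, large 0.023 over 13). The large one was also below 0 with loess (-0.033, small 0.014). Without Rps27, log2 ratios of members above the floor on both arrays ran from -0.25 for Rpl8 to 0.67 for Rpl39.

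The proteins of the stalk, through which the large subunit recruits elongation factors, were close to equal. Rplp0, the base protein of the stalk, gave a signal of 124722 on the DNR and 118535 on the WT array, a log2 ratio of 0.073. Rplp2, one of its acidic tips, had 123089 and 115298, a log2 ratio of 0.094. Rpl12, which sits where the stalk joins the subunit, had 1298 and 1438, a log2 ratio of -0.15. The 3 genes lay within 1.2-fold, and Rplp0 and Rplp2 were lower on the DNR array with quantile normalization, by log2 ratios of -0.10 and -0.091.

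Several members are also known for roles outside peptide synthesis. Rpl11 binds 5S ribosomal RNA together with Rpl5 and, when free, the p53 inhibitor Mdm2. Its signal was 53857 on the DNR and 56898 on the WT array, a log2 ratio of -0.079 that stayed between -0.17 and -0.038 over 7 alternatives. Rps3, at the entry of the messenger RNA and also a partner of NF-kappaB, had 76160 and 75639, a log2 ratio of 0.0099. Rpl13a, known from interferon-gamma controlled translational silencing in myeloid cells, had 174909 and 145749, a log2 ratio of 0.26. Its 3 other probe sets lay between -0.064 and 0.032. Of 2 probe sets shared with 1 other gene, the bright one (167859 and 142710) was at 0.23 and the dim one (472.3 and 671.6) at -0.51. Rpsa, also described as a laminin receptor, had 127329 and 110392, a log2 ratio of 0.21. Rpl10a had 75401 and 71075, a log2 ratio of 0.085, and Rpl38, which is needed for translation of certain homeobox messenger RNAs, had 158309 and 134993, a log2 ratio of 0.23. Rpl38 was at -0.069 with quantile normalization. Rps4x, the X-linked S4 protein, had 122813 and 126125, a log2 ratio of -0.038.

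Rps6 is the substrate of the S6 kinases downstream of mTORC1. Its brightest probe set under the rule gave a signal of 3440 on the DNR and 4005 on the WT array, a log2 ratio of -0.22, and its second had 130.2 and 116.2, a log2 ratio of 0.16. All 9 probe sets above the floor that are assigned to Rps6 together with 1 other gene were higher on the DNR array, with log2 ratios from 0.017 to 1.23. The brightest Rps6 probe set under the rule thus stood alone in its direction, against its second and the 9 shared ones.

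Rps19, the first gene found mutated in Diamond-Blackfan anaemia, gave a signal of 68310 on the DNR and 77291 on the WT array, a log2 ratio of -0.18. The 10 measured genes known from that anaemia had a median of 0.038, with 5 higher and 5 lower. This median was below 0 with quantile normalization, with loess and without suffixed probe sets, which left 4 genes. Rps25, required for initiation at some viral internal ribosome entry sites, had 3348 and 3311, a log2 ratio of 0.016. A brighter probe set assigned to it and other genes had 42767 and 52442, a log2 ratio of -0.29. The 9 measured proteins of the head of the small subunit had a median of 0.13, with 8 higher. This median was -0.20 without suffixed probe sets, over 6 genes, and -0.024 with quantile normalization. The 5 measured proteins around the exit tunnel of the nascent chain had a median of 0.17, with 3 higher, and this median was 0.023 with each gene as the median of its probe sets, 0.024 with quantile normalization and 0.048 with loess.

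The 1 member past 2-fold was Rps27, a zinc-binding protein of the small subunit. Its only probe set under the rule gave a signal of 1053 on the DNR and 2894 on the WT array, which is 2.75-fold lower (log2 ratio -1.46). This value stayed between -1.46 and -1.42 over 8 alternatives. The floors, the median over probe sets and the removal of suffixed ones could not change it. This single probe set is unsuffixed and well above the floor. A probe set assigned to Rps27 together with 1 other gene gave the opposite direction at a far higher signal, 134024 (DNR) and 116367 (WT), a log2 ratio of 0.20. The paralog Rps27l, a p53 target, had its brightest probe set at 6297 and 4415, a log2 ratio of 0.51. Its other probe sets stood at 0.18 (4369 and 3856) and -0.42 (3202 and 4281). The probe sets of Rps27l thus pointed both ways.

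Paralogs were 4 of the 11 members beyond 1.2-fold on the higher side. Of 6 measured paralogs 5 were higher on the DNR array, with a median of 0.42, beside 51.4% higher of all measured genes. Of these 5, Rpl3l counted as measured only through the DNR array. With values under the floor raised to it, none of the 6 reached 1.5-fold. Rpl39l, a paralog of Rpl39 known from male germ cells, gave 356.3 on the DNR and 237.8 on the WT array, a log2 ratio of 0.58. Rpl7l1, a paralog of Rpl7, had 1427 and 1037, a log2 ratio of 0.46, and its other probe sets were also higher, at 0.26 and 0.042. Rps4l, a paralog of Rps4x, had 244.5 and 188.8, a log2 ratio of 0.37. Rpl3l, a paralog of Rpl3 known from striated muscle, was above the floor on the DNR array alone, by a signal of 112.5, so it is at least 1.01-fold higher. Apart from Rps27l and Rpl7l1 these probe sets are dim: Rpl39l, Rps4l and Rpl3l lie near the floor. Rpl22l1 went the other way, with 28513 and 32830, a log2 ratio of -0.20. Rpl22, which T cells need for their development in the thymus and which is known to repress Rpl22l1, had 90492 and 80654, a log2 ratio of 0.17. The other probe sets of Rpl22 were at 0.023 and -0.28.

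Apart from the paralogs, the highest log2 ratios were, in order, those of Rpl39, Rpl37a, Rps29, Rpl37 and Rpl41. Rpl39, a short protein that lines the exit tunnel, had the highest log2 ratio of the members above the floor on both arrays, 0.67, with signals of 761.9 (DNR) and 478.5 (WT). A probe set assigned to it and 1 other gene had 173072 and 120396, a log2 ratio of 0.52, so both were higher on the DNR array. Rpl37a, a zinc-binding protein of the large subunit, had 168951 and 122257, a log2 ratio of 0.47, and its other probe sets were at 0.13 and 0.27. Rps29, a zinc-binding protein of the small subunit, had the brightest probe set of the family, with 227370 and 165713, a log2 ratio of 0.46. Its other probe sets were at 0.17 and 0.071. Its ratio was 0 with quantile normalization, which was fixed by its equal rank on both arrays. Rpl41, which encodes the smallest protein of the ribosome, had 130673 and 104326, a log2 ratio of 0.32. Rpl37, named after its values were seen, had 7168 and 5685, a log2 ratio of 0.33.

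At the lower end, after Rps27, the differences were small. Rpl8, a protein next to the peptidyl transferase centre, gave 41540 on the DNR and 49355 on the WT array, a log2 ratio of -0.25. Rps26, which touches the messenger RNA at its exit, had 49050 and 56182, a log2 ratio of -0.20. Both kept this direction over 7 alternatives, of which the floors and the median over probe sets could not change it. Rpl14 had 928.3 and 1053, a log2 ratio of -0.18, while 5 brighter probe sets assigned to it and 1 other gene lay between -0.0074 and 0.080. Rps16 was the member that was not measured, with 26.2 and 57.8, both under the floor. Its 2 probe sets shared with other genes were bright and had log2 ratios of 0.062 and 0.34.

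Probe sets of the same gene differed by about as much as the members differed from 0. Of the 105 probe sets 95 were above the floor on both arrays, 54 of them higher and 41 lower on the DNR array, with a median of 0.032. At least 2-fold lower were 2 of the 95 and none was at least 2-fold higher, against 2.76% and 3.20% of all 18075 probe sets that passed the floor on both arrays. In 14 of the 21 genes with at least 2 such probe sets some were higher and some lower, in 6 all were higher and in 1, Rpl35, all 5 were lower. The 2 brightest pointed the same way in 13 of the 21 (61.9%), against 58.3% of 3968 genes in all, so mixed directions were not particular to the family. Over these 21 genes the robust SD per probe set, taken from the log2 ratios of the 2 brightest, was 0.25, against 0.36 over 3968 genes in all. It covers probe sets only and leaves out mice, sorting and hybridisation. The log2 ratios of most members are thus no larger than the disagreement between probe sets.

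The probe sets of 4 genes differed by over 1 in log2 ratio. Of the 6 probe sets of Rps10, a head protein of the small subunit, 1 gave a signal of 25699 on the DNR and 75425 on the WT array, a log2 ratio of -1.55, and the other 5 lay between -0.20 and 0.26. For Rpl41, 1 probe set had 117714 and 59922, a log2 ratio of 0.97, and 2 dimmer ones were at -0.21 and -0.11. For Rps18, a dim probe set of 219.7 and 112.9 was at 0.96, while its brightest, of 132163 and 113863, was at 0.22 and its next 2 were both at -0.11. For Rps20, the 2 bright probe sets were at 0.27 and 0.13 and the 2 dim ones at 0.74 and -0.61. In Rps18 and Rps20 the extreme values came from probe sets near the floor, and in Rps10 and Rpl41 from bright ones.

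**Figure D2:**
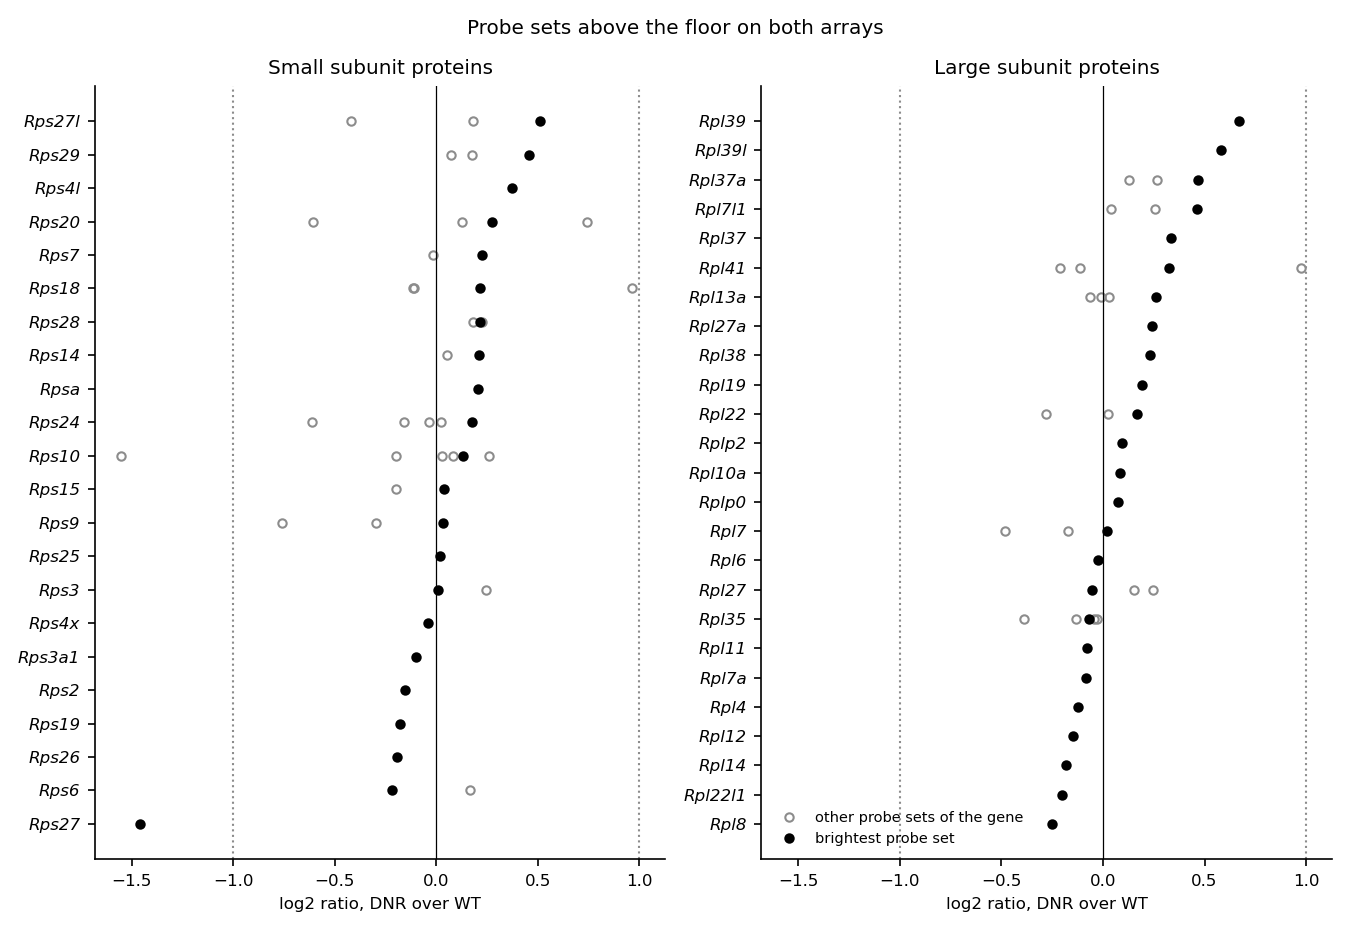
Log2 ratio of DNR over WT for each probe set that passed the floor on both arrays, by gene, with the brightest probe set filled and the others open; dotted lines mark 2-fold. In 14 of 21 genes with several probe sets the points lie on both sides of 0. The 2 brightest pointed the same way in 61.9% of the 21, against 58.3% of 3968 genes in all. Rps27 and 1 probe set of Rps10 lie beyond 2-fold on the lower side. The sign of the family's median turned with quantile normalization, with loess and without suffixed probe sets.

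The ratio of the bright members moved with their brightness. Of the 95 member probe sets, 67 had a mean signal of at least 10000 and 23 of at least 100000. The brightest probe sets of 35 genes were above the 99th percentile of both arrays. Among member probe sets with a mean signal from 50000 to 100000, 13 of 35 were higher on the DNR array, with a median of -0.045. From 100000 up, 21 of 23 were higher, with a median of 0.21. Over the 58 member probe sets with a mean signal of at least 50000 the ratio correlated with log2 mean signal (Pearson r = 0.61, Spearman rho = 0.77). These points are probe sets of the same 2 arrays, share genes and cross-hybridising sequence, and are no replicates. Over the 61 other probe sets of that brightness, r was 0.27 and rho 0.31. From 50000 to 100000, 39 of those 47 were higher, with a median of 0.16, and all 14 from 100000 up, with a median of 0.28. The 8 hybridisation spike-ins of mean signal 50000 and up had log2 ratios of 0.72 to 1.07, with a median of 0.88. The 10 dimmer spike-ins had 0.95 to 1.14, with a median of 1.04. Why the ratios of the members move with brightness was not tested. In 12 of the 21 genes with several probe sets the brightest had the highest ratio, and with each gene taken as the median of its probe sets the family was at 0.022.

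**Figure D3:**
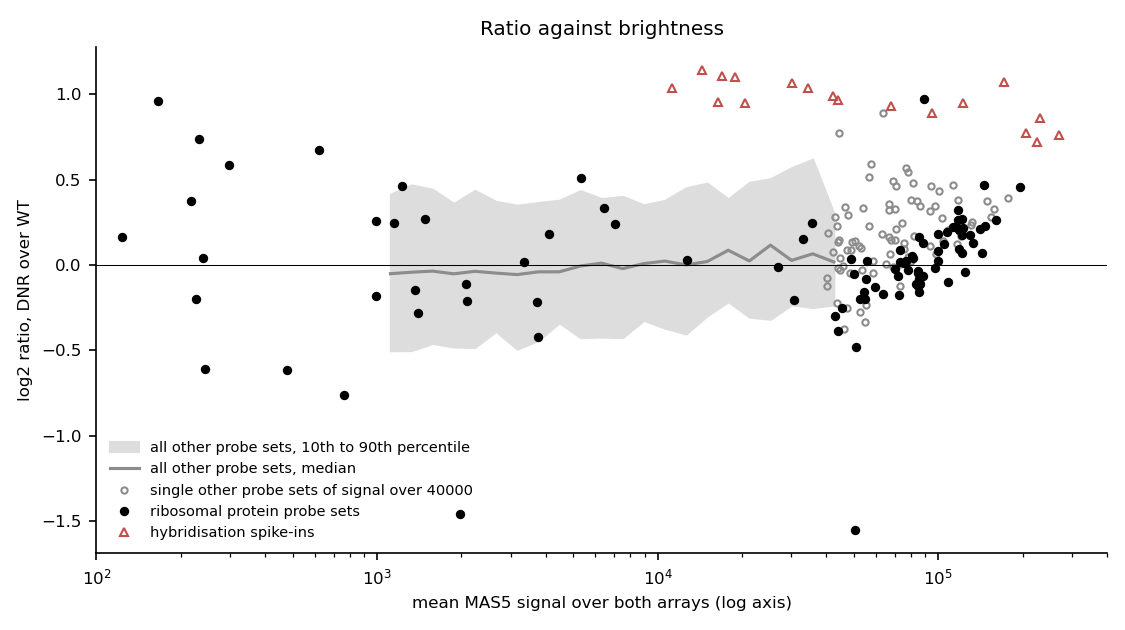
Log2 ratio of DNR over WT against the mean signal of both arrays on a log axis, for the 95 ribosomal protein probe sets (black), for all other probe sets that passed the floor on both arrays (grey line, median; band, 10th to 90th percentile; open grey circles, single ones of signal over 40000; ribosomal protein probe sets shared with other genes left out) and for the 18 hybridisation spike-ins (red triangles). The black points climb from a median of -0.045 between 50000 and 100000 to 0.21 above, where 21 of 23 are higher on the DNR array, a direction that quantile normalization turned for the family's median.

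Of the 67 member probe sets with a mean signal of at least 10000, 10 (14.9%) were beyond 1.2-fold, against 37.6% of 591 other probe sets of that brightness. Of the members' 67, 56.7% were higher, against 59.1% of the others. Shared probe sets of the family, assigned to a ribosomal protein gene and other genes, were higher in 26 of 30 cases from 100000 up, with a median of 0.18. Whether a signal near the top of the range understates a ratio was not tested.

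Other genes of the translation machinery were described from lists. Fau, which encodes the ribosomal protein S30 as a ubiquitin-like fusion, gave 97517 on the DNR and 90379 on the WT array, a log2 ratio of 0.11 that was -0.019 with quantile normalization and -0.013 with loess. Other TOP messenger RNAs had a median log2 ratio of -0.051, with 6 of 17 higher, and it was below 0 in all 8 alternatives. The brightest were Tpt1 (201546 and 153662, log2 ratio 0.39) and Eef1a1, the elongation factor that brings transfer RNAs to the ribosome (168823 and 139198, log2 ratio 0.28). Of 6 elongation factors 2 were higher, with a median of -0.19. Eef1b2, an exchange factor for Eef1a1, had 35538 and 41396, a log2 ratio of -0.22. Of 39 initiation factors 14 were higher, with a median of -0.045. Eif4g2 had 52944 and 48033 and Eif3e 37725 and 36202. Over all measured genes 51.4% were higher. By brightest probe sets no gene of these lists was at least 2-fold different, against 4.0% higher and 2.93% lower of measured genes. Dimmer probe sets of Eif3a, Eif4b and Eif4g3 were past 2-fold, at log2 ratios of -1.57, 1.09 and 1.21.

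The mitochondrial ribosomal proteins, which serve the separate ribosome of the mitochondrion, had a median log2 ratio of 0.061, with 45 of 76 measured genes higher. The share higher was 59.2%, against 51.4% of all measured genes. By their brightest probe sets 2 of the 76 (2.63%) were at least 2-fold lower, against 2.93%, and none higher, against 4.0%. Dimmer probe sets of Mrps21 and Mrps9 were also past 2-fold, at log2 ratios of 1.46 and -1.14. Mrps5 gave 288.0 on the DNR and 759.6 on the WT array, a log2 ratio of -1.40, with 2 further probe sets at -0.43 and -0.18 and 1 above the floor on the DNR array alone. Mrps28 had 735.4 and 1473, just past 2-fold lower. Within 1.2-fold were 37 of the 76 (48.7%), beside 36 of 48 cytosolic members (75%) and 45.1% of all measured genes.

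Ribosome biogenesis factors were mostly lower on the DNR array. Of 36 measured ribosome biogenesis factors 11 were higher and 25 lower, with a median of -0.16 that stayed between -0.16 and -0.12 over 8 alternatives. The shares of 30.6% higher and 69.4% lower stand beside 51.4% and 48.6% of all measured genes. Many of the 36 had mean signals from 1000 to 10000. Of the 6026 probe sets outside the family in that band, 44.8% were higher, with a median log2 ratio of -0.038. By brightest probe sets 2 of the 36 (5.56%) were at least 2-fold lower, against 2.93% of measured genes. None was at least 2-fold higher, against 4.0%. The 2 lower ones were Sdad1, a nuclear export factor of the large subunit (385.3 and 898.7, log2 ratio -1.22, second probe set -0.13), and Rrp12. Rrp12 exceeded the floor in WT Tregs only (331.5) and was at least 2.99-fold lower. A dimmer probe set of Bysl was past 2-fold higher (365.5 and 168.2, log2 ratio 1.12), and its brightest was at 0.77. Of 10 RNA polymerase I transcription genes 5 were higher, with a median of -0.0028 that was above 0 in 3 of 8 alternatives. Polr1d had 9036 and 9081 and Polr1c 3225 and 2661. Of 10 ribosomal protein chaperones and surveillance genes 1 was higher, with a median of -0.19. Naca, part of the complex that receives nascent chains, had 40210 and 46811, and Zfp622, a late large subunit maturation factor, had 23919 and 32633. Of 11 regulators of ribosomal protein synthesis 6 were higher, with a median of 0.019 that was -0.034 without suffixed probe sets. Rheb, the activator of mTORC1, had 5573 and 5499, and Eif4ebp2 had 4357 and 3848. By brightest probe sets none of the 11 was at least 2-fold different, against 4.0% higher and 2.93% lower of measured genes. Some genes stand in several of these lists.

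**Figure D4:**
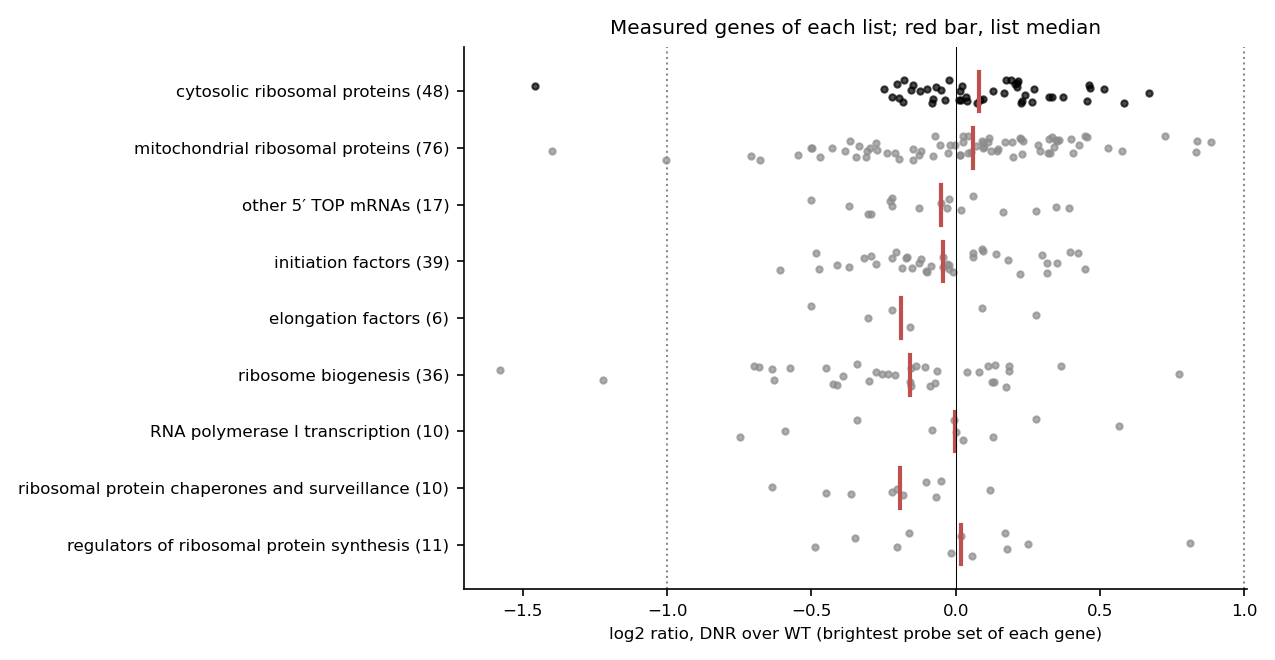
Log2 ratio of DNR over WT of every measured gene in the family and in 8 lists of the translation machinery (points; number of genes in parentheses; red bar, median; dotted lines, 2-fold). Within 1.2-fold lie 75% of the family and 48.7% of the mitochondrial ribosomal proteins, and the family's median of 0.079 turned below 0 with quantile normalization, with loess and without suffixed probe sets.

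Probe sets shared by a family gene and other genes widened the view. In all 110 probe sets were assigned to several genes with a ribosomal protein gene among them. Of these 104 were above the floor on both arrays, 60 higher (57.7%) and 44 lower on the DNR array, with a median log2 ratio of 0.048. At least 2-fold higher were 2 of the 104 and none was at least 2-fold lower. Over all 18075 probe sets that passed the floor on both arrays, 3.20% and 2.76% were. When the shared probe sets with exactly 1 family gene were added, which was chosen after the data were seen, 75 family genes were measured. Of the 75, 50 were higher (66.7%), beside 51.4% of all genes measured by probe sets of 1 gene. None was at least 2-fold different in either direction, against 4.0% higher and 2.93% lower. Their log2 ratios ran from -0.32 for Rps21 to 0.58 for Rpl39l, with a median of 0.085. With the shared probe sets added the 2-fold lower value of Rps27 was no longer the one that stood for the gene.

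**Figure D5:**
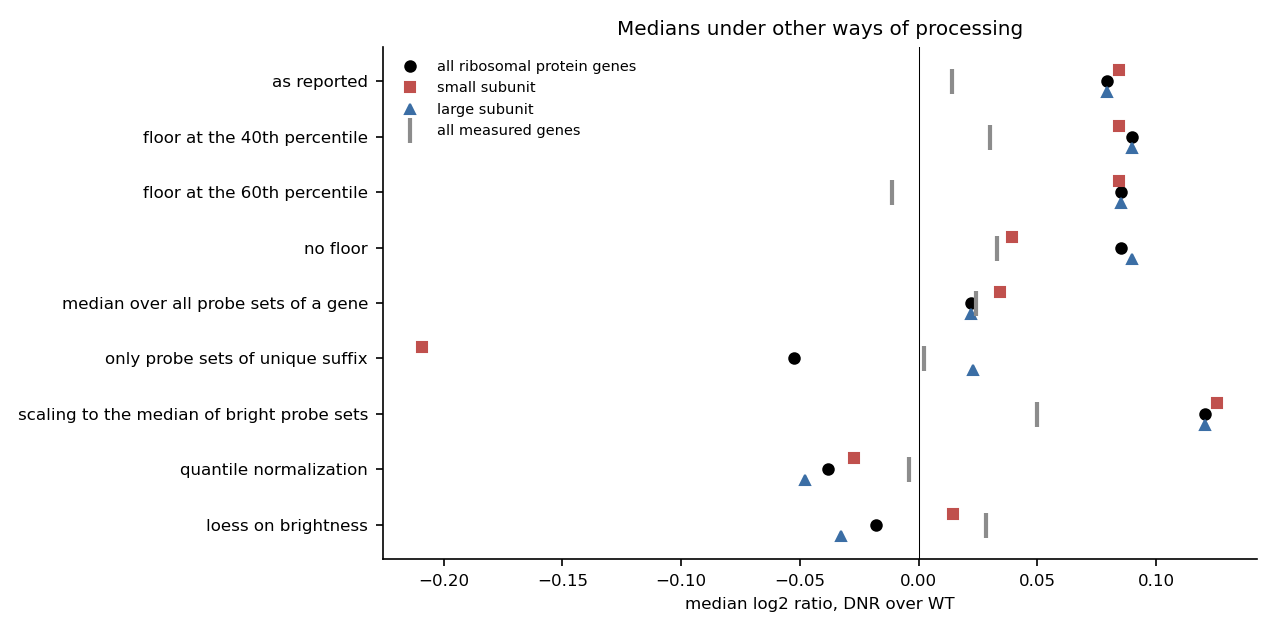
Median log2 ratio of DNR over WT of the measured ribosomal protein genes (black circles), of the small subunit (red squares) and of the large subunit (blue triangles) as reported and under 8 other ways of processing, with the median of all measured genes as a grey bar. The family's median ran from -0.052 to 0.12 and was below 0 in 3 of the 8.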

How the data were processed

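The authors computed linear signal intensities, 1 for each probe set of an array, and deposited them; the submitters' processing notes name MAS5. How they were scaled is not described there. With 2% of values trimmed at each end both arrays have a mean of 500.0. Of 45101 probe sets 64 are controls. The platform annotation gives exactly 1 gene to 34945 of the other 45037, and its symbols match those of RefSeq (34741 Entrez identifiers found, 0 symbols changed). The floor, the brightest probe set per gene, the 2-fold threshold and the log2 ratio were computed in Python 3.11.15 with pandas 2.3.3, and the loess with statsmodels 0.14.6 (span 0.2). The number of arrays limits the precision, and no test was made. The code was tested on simulated data. The genes named are the 6 highest and 6 lowest ratios, genes past 2-fold or above the floor on 1 array, the 4 brightest, those whose probe sets differ by over 1, and 21 names chosen by role, of which 17 had a probe set under the rule. Of other lists up to 4 genes past 2-fold or the 2 brightest are named. Members, lists and the rule were chosen with earlier results of these data known. Alternatives changed the floor, the probe sets, the scaling, the threshold and the paralogs.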

Additional observations from a re-analysis of the deposited data

How the results depend on the processing

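The signs of small ratios depended on the processing. Of 29 named members 17 kept their direction under all alternatives run for them, and in 12 it turned or became 0 under at least 1 (Rpl10a, Rpl13a, Rpl38, Rpl41, Rplp0, Rplp2, Rps3, Rps4x, Rps10, Rps18, Rps20 and Rps29). Rpl13a and Rps29 became 0 only with quantile normalization, where equal ranks on both arrays give equal values. From a mean signal of 100000 up, 23 member and 30 shared family probe sets stood beside 14 others. Quantile normalization there ranked the family largely against itself. Added shared probe sets were not among the alternatives run for named members. Those of Rps6, Rps25 and Rps27 pointed the other way from the brightest probe set under the rule. For a member with 1 probe set far above the floor, the floors and the median over probe sets cannot change the ratio. The floor at the 40th or the 60th percentile left all medians of the family within 0.1. Without suffixed probe sets, medians were -0.052 for the family (48.0% higher, 25 genes), -0.21 for the small subunit, -0.037 for the P stalk, -0.20 for the small subunit head, -0.41 for the anaemia genes and -0.18 for other TOP messenger RNAs. With quantile normalization they were -0.038 for the family (37.5% higher), -0.027 for the small and -0.048 for the large subunit, -0.10 for the P stalk, 0.024 for the exit tunnel, -0.024 for the small subunit head and -0.019 for Fau. With loess they were -0.018 for the family (47.9% higher), -0.033 for the large subunit, -0.063 for the P stalk, 0.048 for the exit tunnel, -0.077 for the anaemia genes and -0.013 for Fau. With the median over probe sets the exit tunnel was at 0.023 and the paralogs at 0.22. Members at least 2-fold higher numbered 1 with no floor (Rpl3l) and 1 at 1.5-fold (Rpl39). Members at least 2-fold lower numbered 2 with no floor (Rps27 and Rps16), 0 at 3-fold and 0 with shared probe sets added. The cause of these shifts was not tested. No paired analysis was possible because each genotype has 1 array. Signal over background limits the paralogs near the floor.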
